A study of Rattus norvegicus with 15 samples.

Results

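The 9 genes described here are the lens crystallins Cryaa, Cryba1, Cryba2, Cryba4, Crybb1, Crybb2, Crybb3, Crygd and Crygs, measured by RNA sequencing in rat retina. They were chosen by gene symbol, as 9 of the 20375 genes listed, and all 9 passed the filter on low values that 15424 genes passed. The lens fibre genes Bfsp1, Bfsp2, Mip, Lim2 and Lgsn were read beside them as a check for lens tissue.

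The 15 libraries came from retinas of wild-type Sprague-Dawley rats at postnatal week 12, labelled as day 31 after transplantation, with 3 libraries in each of 5 groups. NT rats were healthy and untreated. Sham rats received sodium iodate (NaIO3), which damages the retinal pigment epithelium and photoreceptors, systemically at 40 mg/kg, and by the study's methods an injection of vehicle alone. MSC, MSCEPO and DPSC rats received the same NaIO3 dose and cells into the vitreous, the space between lens and retina. By the study's methods, which cover MSC and MSCEPO, the cells came some days before the NaIO3. They were human mesenchymal stem cells from Wharton's jelly of the umbilical cord, the same kind of cells carrying the human erythropoietin gene by lentivirus, or cells labelled DPSC. Rats with xenografts were also given dexamethasone at 2 mg/kg and cyclosporin at 10 mg/kg/day, so cell transplantation and immunosuppression cannot be told apart in these groups. DPSC is not among the groups the paper describes. The number of cells injected is not settled by the sources used here. The labels do not say that each library was a separate rat, so the p-values below measure the spread between these libraries.

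Crystallins are the main soluble proteins of the lens. The alpha-crystallins are small heat shock proteins that keep other proteins from aggregating, and the beta- and gamma-crystallins are a related family of compact structural proteins that give the lens its refractive power. Lens epithelial cells carry mostly alpha-crystallin, while beta- and gamma-crystallins accumulate as the cells elongate into fibres, and several crystallins are also transcribed in retinal neurons and glia.

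Every value is a regularized logarithm (rlog), a count on the log2 scale that was corrected for library size and shrunken for low counts. It is not divided by transcript length, so a gene is compared with itself across libraries and never with another gene. The depth of each library cannot be read from these values, as read counts were not analysed here. In bulk RNA, fewer cells of a type and less RNA per cell cannot be told apart.

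The promoters of 3 members are shown as examples, one from a gene with both motifs searched, one with the same motif at 2 positions and one with neither. All 9 members matched the RefSeq promoter table (GRCr8 build), which gives 250 bases before to 50 bases after each start. One motif was TGCTGA, part of the recognition element of Maf factors, which are regulators of lens fibre genes, searched for on either strand, so that the other strand's match is printed as TCAGCA. The other motif was the letters TATAAA, a core promoter element, on the gene's own strand. Capitals mark the matches, which did not overlap each other.
Cryba1 (chr10:63112768-63113067, minus strand): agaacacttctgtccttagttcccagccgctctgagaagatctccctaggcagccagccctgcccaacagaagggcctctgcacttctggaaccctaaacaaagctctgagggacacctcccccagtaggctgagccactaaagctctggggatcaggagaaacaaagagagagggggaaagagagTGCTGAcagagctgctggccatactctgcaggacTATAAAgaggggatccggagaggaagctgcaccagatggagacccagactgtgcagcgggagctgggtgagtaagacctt
Cryba4 (chr12:50046799-50047098, plus strand): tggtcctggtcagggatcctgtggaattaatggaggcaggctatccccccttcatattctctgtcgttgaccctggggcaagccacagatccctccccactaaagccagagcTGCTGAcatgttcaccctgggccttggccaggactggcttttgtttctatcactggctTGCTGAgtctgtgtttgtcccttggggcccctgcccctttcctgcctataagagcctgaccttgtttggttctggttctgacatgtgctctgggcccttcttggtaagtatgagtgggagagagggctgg
Crygd (chr9:73937360-73937659, minus strand): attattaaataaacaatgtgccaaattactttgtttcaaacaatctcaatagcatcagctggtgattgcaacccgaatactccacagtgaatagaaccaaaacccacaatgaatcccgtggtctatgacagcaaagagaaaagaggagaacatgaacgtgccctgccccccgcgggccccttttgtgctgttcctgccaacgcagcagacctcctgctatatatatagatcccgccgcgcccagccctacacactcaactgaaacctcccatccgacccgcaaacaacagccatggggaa

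TGCTGA or its reverse complement was found in 6 of the 9 members (Cryaa, Cryba1, Cryba2, Cryba4, Crybb1 and Crygs), and in 18.4% of the 33469 promoters in the table. In Cryba1 it began 64 bases before the start, and in Cryba4 at 138 and 80 bases before it. TATAAA was found in 3 members (Cryba1, Cryba2 and Crygs), against 8.8% of all promoters, and began 30, 38 and 29 bases before the start. Neither motif was in the windows of Crybb2, Crybb3 or Crygd. A match is a run of letters and was not tested as a binding site.

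The members lie on 5 chromosomes. Crybb1 and Cryba4 are neighbours on chromosome 12 whose annotated spans overlap on opposite strands in GRCr8, and Crybb3 and Crybb2 are neighbours on the same chromosome. Crygd lies on chromosome 9 between Cryge, which was not analysed here, and Crygc. The gamma-crystallin genes of this cluster are related copies, and how the counting shared reads between them was not measured here, so the values of single gamma-crystallins carry that uncertainty. The counting used Rnor_6.0 transcripts, and whether those of Crybb1 and Cryba4 share sequence was not examined. The library kit keeps the strand, but whether the counting used it is not given in the sources used here. Sharing of reads between Crybb1 and Cryba4 was therefore not measured.

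The same 3 libraries stood highest for each of the 9 crystallins: DPSC replicate 1, then DPSC replicate 3, then MSCEPO replicate 3. With all 9 averaged, DPSC replicate 1 was 5.81 above the mean of the NT libraries on the log2 scale, DPSC replicate 3 was 4.98 above it and MSCEPO replicate 3 was 3.84 above it. DPSC replicate 2 was 1.19 below it and MSCEPO replicate 1 was 0.82 below it, so libraries of one group fell on both sides of the untreated mean. The NT libraries themselves ran from 1.75 below their mean in replicate 1 to 1.11 above it in replicate 2. By contrast the 3 sham libraries stayed between 1.06 and 1.58 above the NT mean. The group comparisons below rest on these libraries, and medians without a library are given where leaving it out moved them most.

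Cryaa, the alpha-crystallin found mainly in lens, began with its lowest value in NT replicate 1. Cryaa was at 10.73, 14.11 and 13.48 in NT, at 14.31, 15.17 and 14.22 in sham, at 15.18, 12.62 and 13.54 in MSC, at 11.76, 14.11 and 16.29 in MSCEPO and at 18.21, 11.67 and 17.50 in DPSC. Each sham library was above each NT library, while the MSC, MSCEPO and DPSC libraries overlapped both groups. Within a group, DPSC spread most, from 11.67 to 18.21.

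The beta-crystallins come in acidic forms, Cryba1, Cryba2 and Cryba4, and basic forms, Crybb1, Crybb2 and Crybb3, which associate into dimers and larger complexes. Cryba1 was at 9.04, 12.18 and 11.60 in NT, at 12.63, 12.72 and 12.21 in sham, at 13.79, 10.59 and 12.22 in MSC, at 10.43, 11.22 and 14.98 in MSCEPO and at 17.10, 10.10 and 16.16 in DPSC. Cryba2 was at 7.66, 10.74 and 10.06 in NT, at 11.36, 11.67 and 10.91 in sham, at 12.11, 9.50 and 10.88 in MSC, at 8.92, 10.34 and 13.21 in MSCEPO and at 15.21, 8.62 and 14.37 in DPSC. Cryba4 was at 8.14, 11.19 and 10.58 in NT, at 11.71, 11.48 and 11.26 in sham, at 12.39, 9.93 and 11.39 in MSC, at 9.06, 10.04 and 13.91 in MSCEPO and at 15.74, 8.72 and 15.04 in DPSC. In all 3 acidic forms each sham library was above each NT library, and the MSCEPO and DPSC libraries reached both below and above sham.

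The basic forms had the same library order at their ends, with NT replicate 1 lowest and DPSC replicate 1 highest. Crybb1 was at 7.22, 9.68 and 9.20 in NT, at 10.05, 10.23 and 9.54 in sham, at 11.05, 8.29 and 9.45 in MSC, at 8.03, 9.20 and 12.11 in MSCEPO and at 14.26, 7.48 and 13.30 in DPSC. Crybb2 was at 10.39, 13.37 and 12.93 in NT, at 13.93, 14.58 and 13.62 in sham, at 14.87, 12.43 and 13.76 in MSC, at 11.27, 12.98 and 16.20 in MSCEPO and at 18.03, 11.17 and 17.27 in DPSC. Crybb3 was at 7.05, 9.76 and 9.52 in NT, at 9.98, 10.63 and 9.73 in sham, at 10.98, 8.64 and 9.65 in MSC, at 8.26, 9.56 and 12.13 in MSCEPO and at 14.16, 7.61 and 13.33 in DPSC. Sham stood above NT without overlap for Crybb2 only, since sham replicate 3 was below NT replicate 2 for Crybb1 and Crybb3.

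Crygs, a gamma-type crystallin that continues to be made in the adult lens, followed the beta-crystallins, whereas Crygd, a gamma-crystallin of the fibre cells, had another order. Crygs was at 8.04, 10.88 and 10.32 in NT, at 11.30, 11.31 and 10.79 in sham, at 12.27, 9.57 and 11.04 in MSC, at 8.76, 9.65 and 13.67 in MSCEPO and at 15.53, 8.38 and 14.75 in DPSC. Crygd was at 6.38, 8.52 and 8.49 in NT, at 7.38, 6.89 and 7.69 in sham, at 10.87, 8.67 and 9.36 in MSC, at 6.53, 5.78 and 12.49 in MSCEPO and at 14.43, 5.95 and 13.50 in DPSC. For Crygd the 3 sham libraries were below NT replicates 2 and 3, each MSC library was above each NT and each sham library, and the lowest library was MSCEPO replicate 2 rather than NT replicate 1. Its DPSC libraries ran from 5.95 to 14.43, the widest range of the 9 genes within a group.

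**Figure D1:**
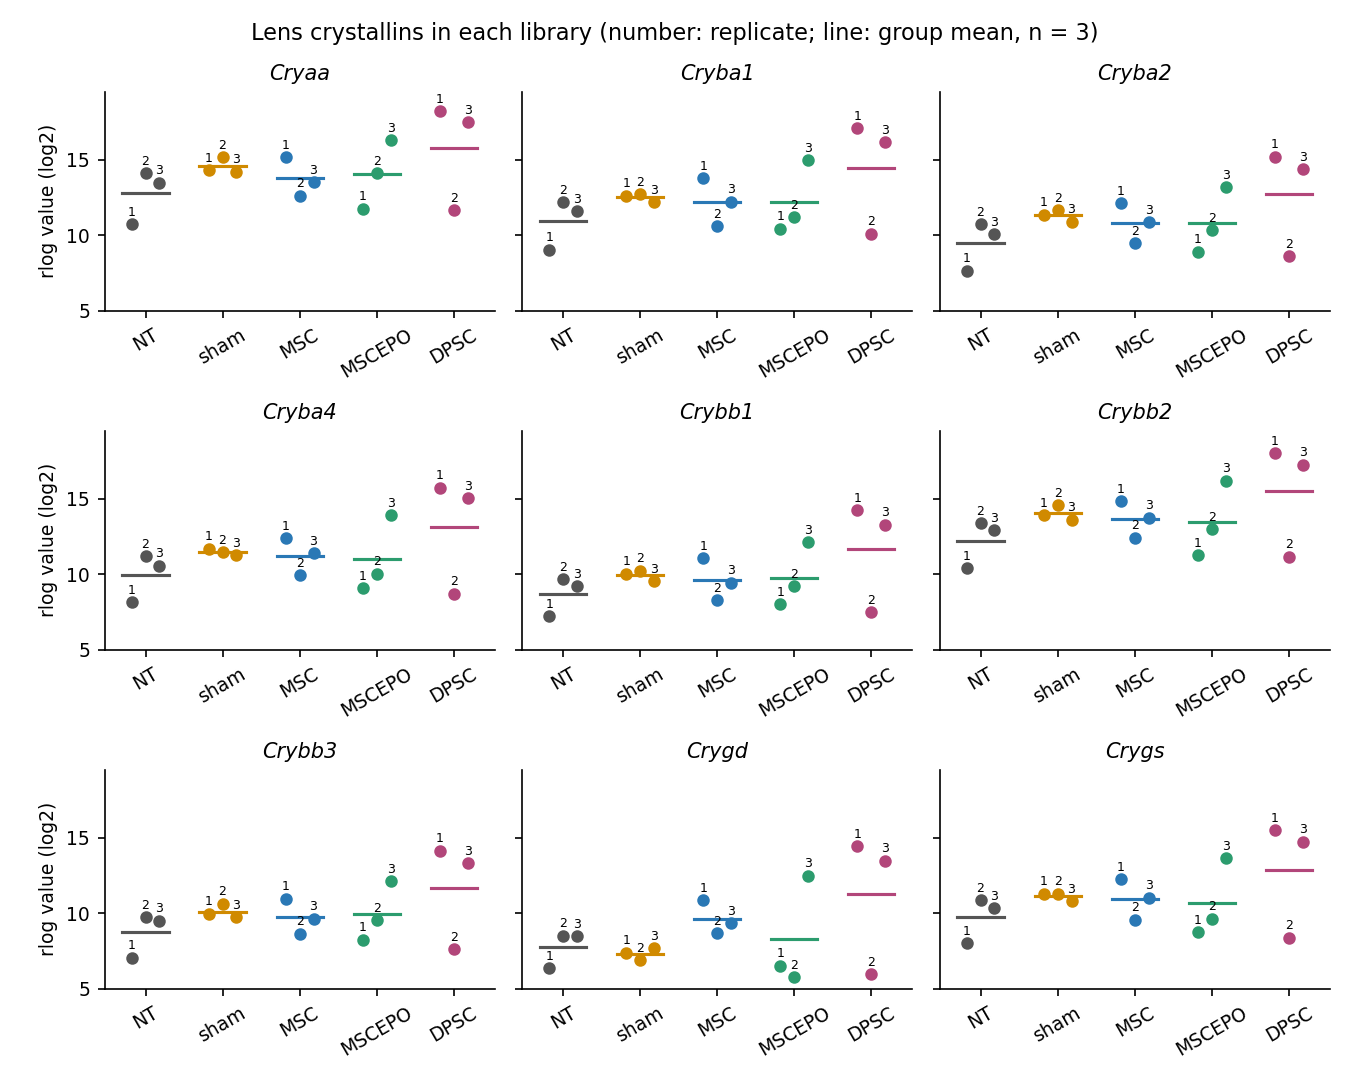
Each panel shows the rlog values (log2 scale, vertical axis) of 1 crystallin in the 15 libraries by group, with points numbered by replicate and a line at the group mean (n = 3). DPSC replicates 1 and 3 and MSCEPO replicate 3 are the 3 highest libraries in each panel, and DPSC replicate 2 lies far below its group mean.

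The spread between libraries of one group was among the widest of any gene. The within-group standard deviation (SD) of the 9 crystallins ran from 2.02 for Crybb3 to 2.76 for Crygd, with a median of 2.22, against a median of 0.19 over all 15424 genes tested. Their ranks by that SD lay between 4 and 23 from the top. From the lowest to the highest library the crystallins ranged over 7.05 (Crybb1) to 8.65 (Crygd) on the log2 scale, which is 132- to 401-fold, where the median gene ranged over 0.79. Group membership took up a median of 24.7% of the variance of the crystallins and 34.5% of that of all genes tested. Any division of 15 libraries into 5 groups takes up part of the variance, so this share alone does not measure a treatment effect.

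The lens fibre genes followed the crystallins library by library. Bfsp1 and Bfsp2 encode the beaded filament proteins particular to lens fibres. Bfsp1 was at 6.59, 7.90 and 7.92 in NT, at 9.28, 8.99 and 8.71 in sham, at 10.58, 8.07 and 9.87 in MSC, at 7.14, 7.29 and 12.14 in MSCEPO and at 13.55, 6.89 and 12.89 in DPSC. Bfsp2 was at 7.72, 8.55 and 8.15 in NT, at 9.15, 9.60 and 9.14 in sham, at 10.13, 8.50 and 9.59 in MSC, at 8.68, 9.42 and 11.00 in MSCEPO and at 12.70, 8.70 and 11.82 in DPSC. The highest 3 libraries of both were again DPSC replicates 1 and 3 and MSCEPO replicate 3, and each sham library was above each NT library.

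Mip, the aquaporin of the fibre membrane, and Lim2, a junction protein of the same membrane, were read next. Mip was at 8.10, 8.38 and 8.70 in NT, at 9.36, 9.07 and 8.71 in sham, at 9.90, 8.44 and 9.39 in MSC, at 8.12, 8.90 and 11.15 in MSCEPO and at 13.09, 8.53 and 12.14 in DPSC. Lim2 was at 5.26, 6.53 and 6.44 in NT, at 7.55, 7.73 and 6.72 in sham, at 8.74, 6.10 and 7.71 in MSC, at 5.29, 7.31 and 9.91 in MSCEPO and at 11.54, 5.21 and 10.92 in DPSC. Lgsn was at 6.59, 8.29 and 8.02 in NT, at 9.81, 8.79 and 9.06 in sham, at 10.76, 7.94 and 10.34 in MSC, at 6.51, 7.18 and 12.46 in MSCEPO and at 14.13, 6.15 and 13.29 in DPSC. Lgsn, a glutamine synthetase relative of the lens, had its lowest value in DPSC replicate 2, as did Lim2, and for all 3 genes DPSC replicate 1 was highest. The lowest value of the 5 fibre genes in any library was 5.21. As rlog values are shrunken, a value above 0 does not show that a library held reads of the gene.

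Over the 15 libraries the mean of the 9 crystallins and the mean of the 5 fibre genes had a Pearson correlation of 0.98 and a Spearman correlation of 0.968. Without DPSC replicates 1 and 3, the 2 libraries farthest from the median, Pearson's r was 0.953, and between deviations from the group means it was 0.981. Among the 36 pairs of crystallins r had a median of 0.991. The 8 pairs with Crygd were lower, from 0.831 to 0.922, where the 28 pairs without it ran from 0.973 to 0.999. These correlations describe libraries that share RNA, depth and normalization and were not tested.

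**Figure D2:**
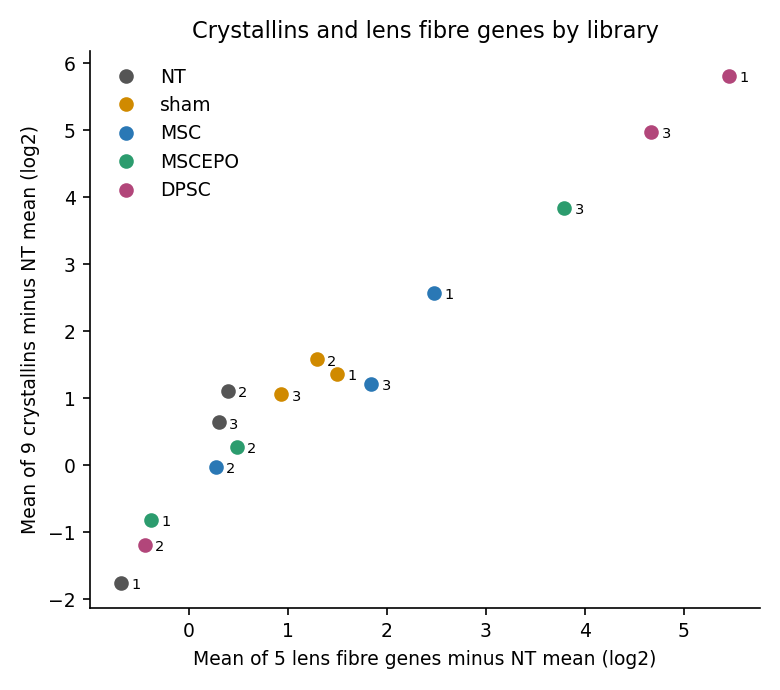
Each point is 1 library (number: replicate), with the mean of the 5 lens fibre genes on the horizontal axis and the mean of the 9 crystallins on the vertical axis, both as rlog differences from the mean of the NT libraries (log2). The points form a rising band from NT replicate 1 at the lower left to DPSC replicate 1 at the upper right.

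**Figure D3:**
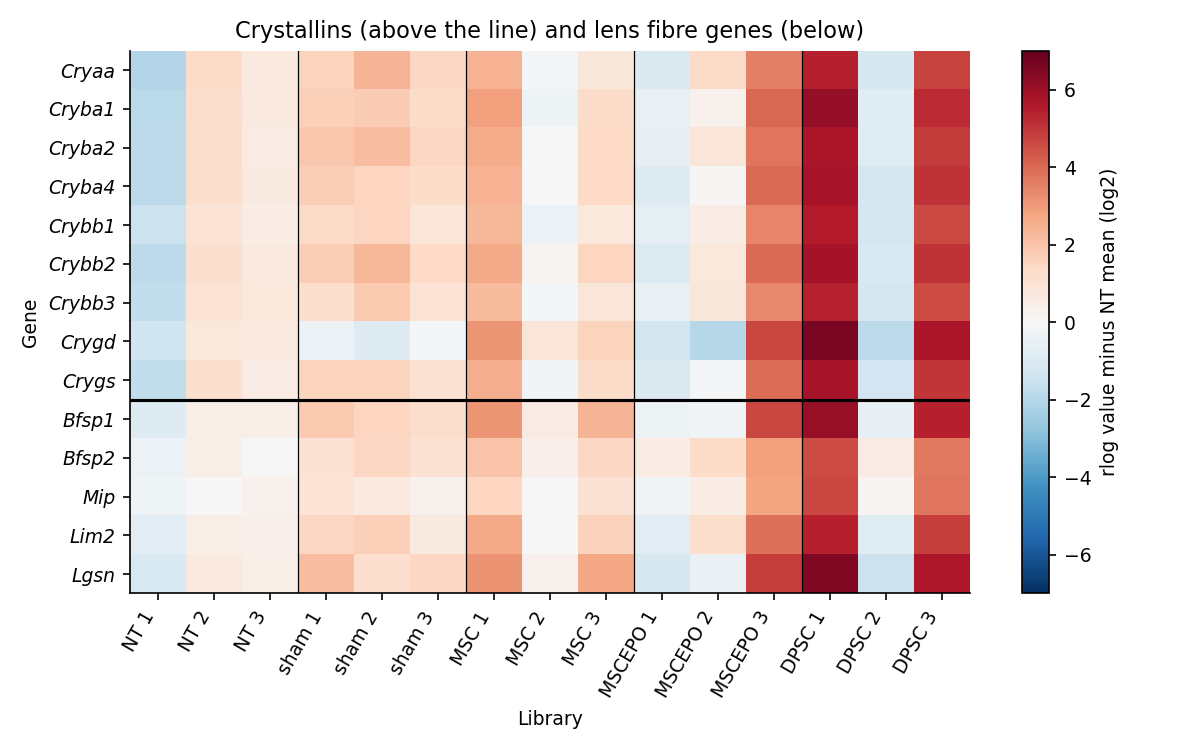
Rows are the 9 crystallins above the black line and the 5 lens fibre genes below it, columns are the 15 libraries, and colour is the rlog value minus the NT mean of the same gene (log2; red above, blue below). Most columns hold one colour from top to bottom, except that Crygd is blue or pale in sham and in MSCEPO replicate 2 where most other rows are red or pale.

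Among all genes outside these 14, the ones whose values over the 15 libraries were most like the crystallin mean were Grifin (r = 0.99), a galectin-related lens protein, Lctl (0.96), Cryab (0.958), Crygb (0.956), Lenep (0.956), Crygc (0.952), the fibre connexin gene Gja3 (0.939), Tgm1 (0.933), LOC100912373 (0.932) and Crygn (0.923). With group means removed Grifin again came first (0.997), and the other 9 were Crygb, Crygc, Cryab, Lctl, Lenep, Reep6, Tgm1, Dnase2b, the nuclease of fibre denucleation, and Crygn, the last at 0.942. Grifin was at 7.42, 10.00 and 9.32 in NT, at 10.53, 10.76 and 10.23 in sham, at 11.25, 9.44 and 10.27 in MSC, at 8.68, 9.98 and 12.49 in MSCEPO and at 14.27, 8.67 and 13.55 in DPSC. Its highest 3 libraries were those of the crystallins. Dnase2b was at 3.29, 3.38 and 3.26 in NT, at 3.39, 3.38 and 3.40 in sham, at 3.82, 3.28 and 3.54 in MSC, at 3.32, 3.34 and 4.40 in MSCEPO and at 5.13, 3.29 and 4.91 in DPSC. Dnase2b stayed near its lowest level in most libraries and was above 4 in the same 3 libraries alone. Grifin and Dnase2b were picked by their correlation with the crystallin mean. Their sharing of the highest libraries follows from that choice and is not separate evidence.

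In the limma fits a gene was called changed with a Benjamini-Hochberg adjusted p under 0.05 over all genes tested and a change over 2-fold. Each SE and interval used a single spread per gene, estimated over all 15 libraries, although the groups differed in spread. For Crygd the SD within a group was 0.40 in sham and 4.65 in DPSC. An SE below is therefore not the spread of the compared groups alone. The first comparison asked what NaIO3 and the sham procedure left at day 31. Sham minus NT was positive for 8 of the 9 crystallins, with a median log2 difference of 1.51, against 0 for all genes. The differences ran from 1.24 ± 1.51 (SE, n = 3 per group) for Crybb1 to 1.83 ± 1.53 for Cryba2, and Crygd was at -0.47 ± 2.00. With limma 0 of 9 were called and 0 had an unadjusted p under 0.05, with a lowest adjusted p of 0.738, where 0.292% of all genes were called. Sham was above NT without overlap for 5 of the 9 crystallins (Cryaa, Cryba1, Cryba2, Cryba4 and Crybb2) and for all 5 fibre genes, and for 16.6% of all genes tested. The crystallins and fibre genes varied together (median r of 0.945 between the 2 sets), so they do not count as separate observations. NT replicate 1 set much of the size, since the median was 0.60 without it and 2.13 without NT replicate 2.

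MSC was compared with sham to follow the transplanted cells in the damaged retina. The crystallins other than Crygd lay between 0.79 and 0.17 below sham on the log2 scale, and Crygd was 2.32 ± 2.00 above it (SE, n = 3 per group). The median of the 9 was -0.34. By limma 0 of 9 were called and 0 had an unadjusted p under 0.05, and 0% of all genes were called. The adjusted p of Crygd was 0.683 by limma in that fit. In a limma fit to only the 2 groups compared it was 0.215, and 0 of 9 were called, where 32 of all genes were called. Crygd was the one crystallin whose MSC libraries all exceeded the sham libraries, and 13.1% of all genes did so. Without MSC replicate 2 the median was 0.31, and without MSC replicate 1 it was -0.97.

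MSCEPO was compared with sham and with MSC, the second comparison setting cells with the erythropoietin gene beside cells without it. By the study's methods the MSCEPO cells were also sorted and carried a GFP marker from the lentivirus. The gene and these steps cannot be told apart here. Against sham the median of the 9 crystallins was -0.44, with values from -0.56 for Crybb2 to 0.95 for Crygd, and limma called 0 of 9 (0 at an unadjusted p under 0.05; 0.0195% of all genes called). Without MSCEPO replicate 3 the median was -1.69, and without MSCEPO replicate 1 it was 0.59, so a single library turned the sign. Against MSC the median was -0.01, Crygd was at -1.37 ± 2.00 (SE, n = 3 per group), and limma called 0 of 9 (0 at an unadjusted p under 0.05; 0% of all genes called). In that comparison the median was -1.38 without MSCEPO replicate 3 and 0.91 without MSCEPO replicate 1.

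DPSC minus sham was positive for all 9 crystallins, with a median of 1.68. Crygd had the largest difference at 3.97 ± 2.00 (SE, n = 3 per group) and Cryaa the smallest at 1.23 ± 1.56. By limma 0 of 9 were called, 0 had an unadjusted p under 0.05, and the unadjusted p of Crygd, the lowest of the 9, was 0.069, with an adjusted p of 1, where 0.0130% of all genes were called. One of the 5 fibre genes, Mip, had an unadjusted p under 0.05. No crystallin had DPSC libraries that all exceeded sham, since DPSC replicate 2 was below every sham library for each of the 9. The median was 3.84 without DPSC replicate 2, 0.39 without DPSC replicate 1 and 0.77 without DPSC replicate 3. With libraries weighted by their fit (array weights), limma called 5 of 9 (Cryba1, Crybb1, Crybb3, Crygd and Crygs), where 0.759% of all genes were called.

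The largest median difference of the 8 comparisons was that of DPSC against NT. The median of the 9 crystallins was 3.20, from 2.92 ± 1.47 for Crybb3 to 3.51 ± 1.65 for Cryba1 (SE, n = 3 per group), and the lowest adjusted p by limma was 0.305. With limma 0 of 9 were called and 0 had an unadjusted p under 0.05, where 0.784% of all genes were called. Of the 5 fibre genes 0 were called and 3 had an unadjusted p under 0.05, of which Bfsp2 had a difference of 2.93 ± 0.84 and an adjusted p by limma of 0.0881. Without DPSC replicate 2 the median was 5.39 and 2 of 9 were called, Crybb1 and Crybb3, where 0.571% of all genes were called. The median was 1.91 without DPSC replicate 1 and 2.26 without DPSC replicate 3, with 0 called in either case. With array weights all 9 were called, where 2.30% of all genes were called.

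MSC and MSCEPO were above NT by medians of 1.26 and 1.21, with all 9 differences positive in each. These ran from 0.90 (Crybb1) to 1.84 (Crygd) for MSC and from 0.47 (Crygd) to 1.34 (Cryba2) for MSCEPO. By limma 0 of 9 were called in either comparison and 0 had an unadjusted p under 0.05, where 6.70% of all genes were called for MSC and 3.57% for MSCEPO. Each MSC library was above each NT library for Crygd alone of the 9, and for 22.9% of all genes. The median for MSC was 0.35 without NT replicate 1, and that for MSCEPO was -0.11 without MSCEPO replicate 3. The 4 comparisons with NT share its 3 libraries and those with sham share theirs, so their medians are not independent.

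**Figure D4:**
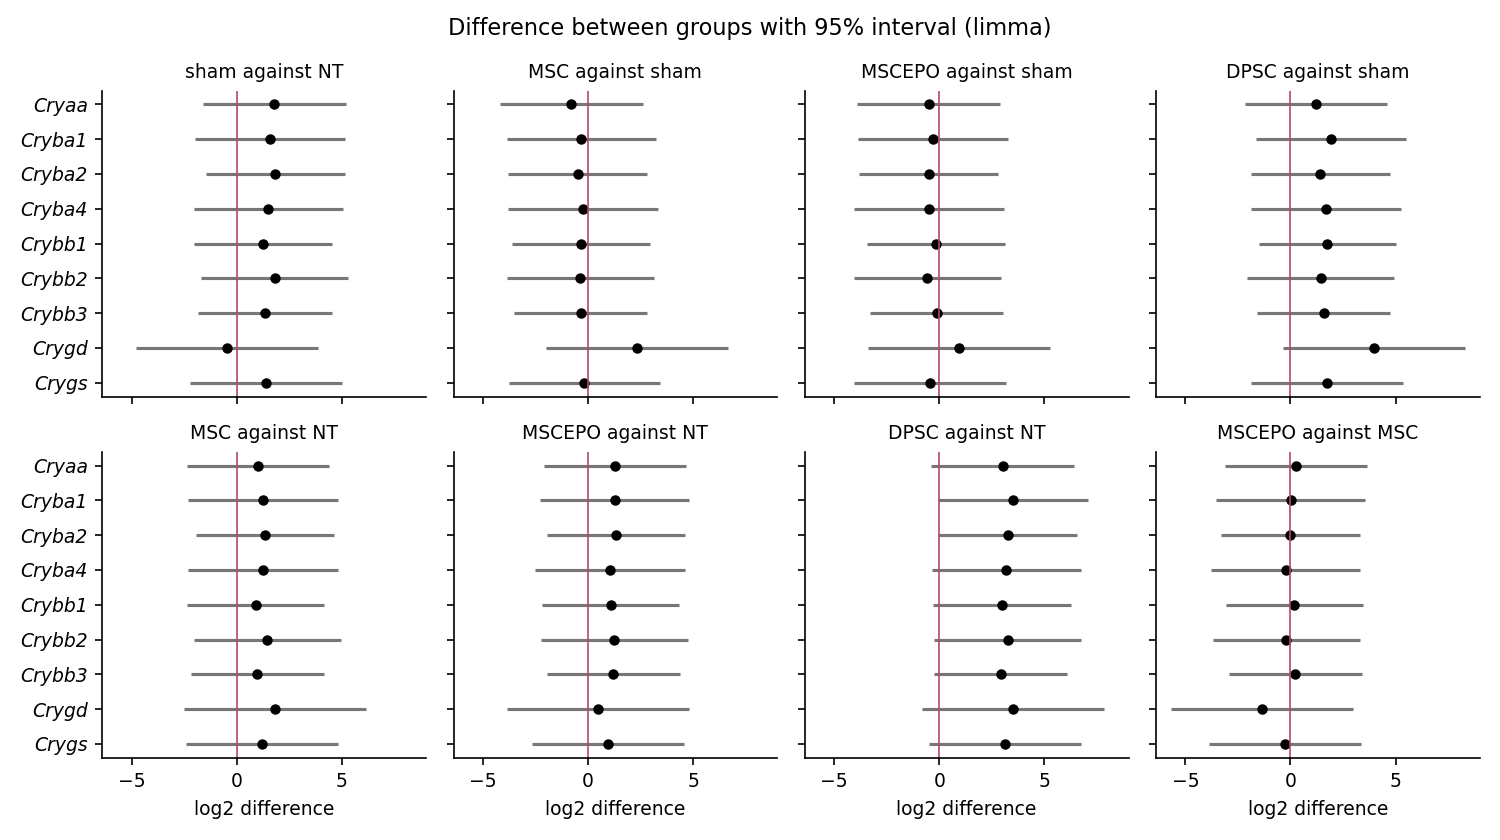
Each panel is 1 comparison, with points at the log2 difference of group means for each crystallin (first group minus second, n = 3 per group) and bars for the 95% interval from limma. The intervals use a single spread per gene, estimated over all 15 libraries. Every bar crosses 0, and Crygd lies apart from the other 8 in sham against NT and in the comparisons with sham.

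Ordered by group mean, NT was lowest and DPSC highest for 8 of the 9 crystallins. Crygd was lowest in sham (7.32 ± 0.40, SD, n = 3), followed by NT (7.79 ± 1.23), MSCEPO (8.26 ± 3.67), MSC (9.64 ± 1.12) and DPSC (11.29 ± 4.65). For Cryba1, as an example of the rest, the order was NT (10.94 ± 1.67), MSC (12.20 ± 1.60), MSCEPO (12.21 ± 2.43), sham (12.52 ± 0.27) and DPSC (14.45 ± 3.80). Neighbours in these orders that were compared directly were not called by limma, and DPSC was not compared with MSC.

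Crygd was then set against the other crystallins of the same library. Its value minus the mean of the other 8, relative to NT, was -1.99, -2.80 and -1.31 in sham and 0.57, 1.01 and 0.41 in MSC, with NT at 0.38, -0.44 and 0.06. The sham libraries were below all NT and all MSC libraries. An exact permutation test gave p = 0.1 for sham against NT and for MSC against sham, the smallest value that 20 assignments allow. It was -0.50, -2.57 and 0.96 in MSCEPO and 0.93, -0.73 and 0.82 in DPSC, each group overlapping NT.

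Crygb and Crygc, neighbours of Crygd in the gamma cluster, were read in the same way. Relative to the same 8 crystallins and to NT, Crygb was at -0.73, -1.50 and -0.51 in sham and Crygc at -1.05, -1.96 and -0.50, in each case below all 3 NT libraries. In MSC they were at 0.79 to 1.04 and at 0.89 to 1.15, above all 3 NT libraries. In MSCEPO Crygb was at -1.12, -2.30 and 1.21 and Crygc at -0.66, -2.03 and 1.06, and in DPSC they were at 0.96, -1.29 and 0.80 and at 0.90, -0.95 and 0.87, so that libraries of each group lay on both sides of NT. This measure was chosen after the values were seen and is given as a description. The share of all genes that it would separate between the same groups is not given here.

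When the mean of the 5 fibre genes was added to the limma fit as a covariate, a choice also made after the values were seen, sham minus NT for Crygd was -2.27 ± 0.56 (SE) with an adjusted p of 0.0419, and 1 of 9 crystallins was called, where 1.01% of all genes were called. The other 8 crystallins then differed by -0.14 to 0.45, with a lowest adjusted p of 0.593 by limma. MSC minus sham for Crygd was 1.89 ± 0.54 in that fit, with an adjusted p of 0.0917 by limma. In the other 7 comparisons 0 of 9 were called with the covariate, and 0 to 2 had an unadjusted p under 0.05. Relative to the NT mean, the fibre mean ran from 0.93 to 1.49 in sham and from -0.69 to 0.39 in NT, without overlap. The covariate fit thus compares sham and NT at a fibre level that they did not share. Its p-values describe that model and do not test a difference chosen in advance.

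**Figure D5:**
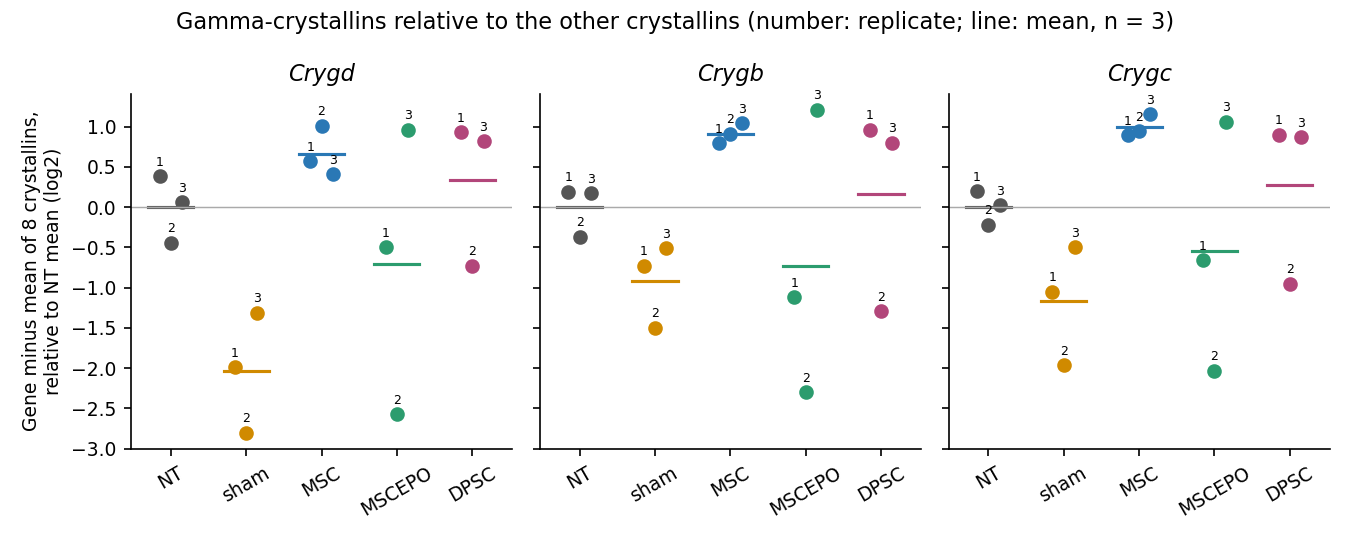
Each panel shows 1 gamma-crystallin gene minus the mean of the 8 crystallins other than Crygd in the same library, as a difference from the NT mean (log2, vertical axis), by group, with points numbered by replicate and a line at the mean (n = 3). The 3 sham points lie below the 3 NT points in each panel, and the 3 MSC points lie above them.

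Other lens genes varied with the same libraries. Of 15 that passed the filter, among them Gja3, gamma-crystallins and Grifin, limma called 0 in any of the 8 comparisons, with 8 at an unadjusted p under 0.05 in DPSC against NT, 5 in DPSC against sham and 0 to 2 in the others. Their summed level, taken as the mean rlog value, ran from 6.14 to 6.91 in NT, 7.03 to 7.27 in sham, 6.64 to 7.66 in MSC, 6.22 to 8.20 in MSCEPO and 6.08 to 9.64 in DPSC, and its correlation with the crystallin mean over the 15 libraries was 0.99. The 10 lens transcription factors, most of which the retina also expresses, such as Pax6 and Prox1, had means between 8.33 and 9.07. Their mean was highest in DPSC replicate 1. Its correlation with the crystallin mean was 0.6, and 0.47 over deviations from the group means. Hsf4 was highest in DPSC replicate 1 (7.81), MSCEPO replicate 3 (7.34) and DPSC replicate 3 (7.18). Pitx3 was at 6.28 and 5.24 in DPSC replicates 1 and 3, against 4.04 to 4.16 in NT. It was higher in MSCEPO replicate 2 (5.15) than in replicate 3 (4.45). Pax6 and Foxe3 did not have the crystallin order. Of the 10, limma called 0 in any comparison, with 0 to 3 at an unadjusted p under 0.05.

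Of 7 relatives of the crystallins with wide expression, limma called 1, Crym, a thyroid hormone binding protein also made in the retina. Crym rose against NT in all 4 groups, by 1.25 ± 0.22 in sham (SE, n = 3 per group; adjusted p = 0.0179 by limma), 1.63 in MSC, 1.72 in MSCEPO and 1.24 in DPSC. Crym was listed at 12.38, 12.53 and 12.26 in NT, at 13.58, 13.97 and 13.37 in sham, at 13.89, 14.26 and 13.92 in MSC, at 14.11, 14.17 and 14.06 in MSCEPO and at 13.06, 13.97 and 13.85 in DPSC. Its treated libraries all lay above NT, and the lowest of them was DPSC replicate 1.

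Cryab, the widely expressed alpha-crystallin, varied instead with the lens members. Cryab was at 11.15, 12.56 and 12.04 in NT, at 12.51, 13.40 and 12.64 in sham, at 13.16, 11.71 and 11.90 in MSC, at 11.77, 12.47 and 13.99 in MSCEPO and at 16.14, 11.64 and 15.32 in DPSC. It was not called by limma, with an adjusted p of 0.201 for its largest difference, 2.45 ± 0.94 in DPSC against NT (SE, n = 3 per group). Of the 5 small heat shock proteins tested, Cryab included, limma called Hspb1 alone, a stress-induced chaperone, which rose against NT by 1.72 in MSC, 1.84 in MSCEPO and 2.26 in DPSC.

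Markers of retina were present in every library. The mean rlog value of 9 photoreceptor genes lay between 13.66 and 15.50, and by limma 8 of 9 fell in MSC, 9 of 9 in MSCEPO and 3 of 9 in DPSC against NT, with 0 called in sham (8 at an unadjusted p under 0.05). The photoreceptor mean was 14.49 and 14.64 in DPSC replicates 1 and 3 against 13.85 in replicate 2, and 14.01 in MSCEPO replicate 3 against 13.83 and 13.66 in replicates 1 and 2. Over deviations from the group means of the 15 libraries its correlation with the crystallin mean was 0.84, and those of the gliosis genes and of the macrophage and microglia genes were -0.72 and -0.49. Over the values themselves, with group means left in, the correlations were 0 for the photoreceptor genes, 0.04 for gliosis and -0.05 for macrophages and microglia. Among 12 gliosis genes limma called 5 higher in sham, 12 in MSC, 11 in MSCEPO and 7 in DPSC against NT, with Gfap at the smallest adjusted p in each. The mean of those 12 was 9.17 and 9.31 in DPSC replicates 1 and 3 and 9.81 in DPSC replicate 2, and 9.23 in MSCEPO replicate 3 against 10.19 and 10.34 in replicates 1 and 2. In MSC, replicate 1, the library with the most crystallin, was the highest of its group at 10.16 against 9.95 and 10.02. The macrophage and microglia genes, of which limma called 8 of 8 higher in MSC, 7 in MSCEPO and 1 in DPSC against NT, had means of 8.01 and 8.13 in DPSC replicates 1 and 3 and 9.38 in replicate 2, and of 8.64 in MSCEPO replicate 3 against 9.61 and 9.12 in replicates 1 and 2. In MSC the crystallin-rich replicate 1 was again the highest, at 10.72 against 9.60 and 9.08. The part of these differences in the crystallin values was not tested.

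Müller glia genes had means between 12.56 and 13.15 (Vim and Apoe were called higher in MSC and MSCEPO against NT, and Vim in DPSC), and the 10 genes of inner retina neurons had means between 10.33 and 11.20 with 0 called by limma and 0 to 5 at an unadjusted p under 0.05. The retinal pigment epithelium genes, the cell layer that NaIO3 injures, had means from 10.32 to 10.95 in NT and 8.47 to 10.25 in the other groups, and limma called 4 of 8 lower in MSC and 2 in MSCEPO against NT. The mean of 13 genes of cornea, iris and ciliary body did not share the order of the crystallins. It was 9.94 in DPSC replicate 1, 8.16 in DPSC replicate 3 and 8.20 in MSCEPO replicate 3. Its correlation with the crystallin mean was -0.06 over the 15 libraries and 0 over deviations from the group means. Of these 13, limma called Myoc lower in MSC and Krt12 lower in MSCEPO, both against NT.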

How the data were processed

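Stranded mRNA libraries of rat retina, 15 in all, were sequenced. The authors quantified reads with Salmon 1.1.0 against the Ensembl Rnor_6.0 transcriptome, summed them to genes and applied the rlog transformation of DESeq2, and deposited the resulting log2 values, 1 file per library. These values do not carry the depth of each library, so no counting interval is given. A table of the whole series has 15 further per-sample columns whose names match no label; these were not used.

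Groups came from the labels. limma 3.58.1 in R 4.3.3 (group means, empirical Bayes with trend) was fitted to all 15 libraries and to 15424 genes, those averaging 3.32 (log2 of 10) or more over the libraries. A call needed both a change of more than 2-fold and a Benjamini-Hochberg adjusted p below 0.05. The fit was tested on simulated data. Alternatives were other filters, samples, scalings, array weights, a replicate block, leaving out each library and, added after the data were seen, a lens fibre covariate.

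The members, the 13 gene lists and the tests were chosen with earlier results of these data known. Named were the 9 members, the 5 fibre genes, called genes of each other list (at most 3 by adjusted p), and the 10 genes most correlated with the crystallin mean. Grifin, Dnase2b, Cryab, Crygb, Crygc, Krt12, Pitx3 and Hsf4 were described further, and Pax6, Prox1 and Krt5 named, after their values were seen. Cryge and 4 other listed genes were not analysed here. Promoters came from RefSeq (GRCr8).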

Additional observations from a re-analysis of the deposited data

How the results depend on the processing

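Of the counts of crystallins called, 75 of the values under other settings and 119 of those without 1 library were 0, as reported. Array weights, whose estimation stopped before full convergence, gave 5 in DPSC against sham and 9 in DPSC against NT, and the fibre covariate gave 1 in sham against NT. Leaving out 1 library gave 0 to 2 in DPSC against NT, with 2 without DPSC replicate 2, and 0 in the other 7 comparisons. Crygd changed sign in sham against NT with array weights (0.26). With the fibre covariate it changed sign in MSC (-0.37), MSCEPO (-1.40) and DPSC (-1.18) against NT. The cause was not tested. The covariate took the median of the 9 to 0.02 in sham against NT, to -0.70 in DPSC against sham, to -0.59, -0.29 and -0.55 in MSC, MSCEPO and DPSC against NT, to -0.67 in MSC against sham and to 0.25 in MSCEPO against MSC. Array weights took it to 2.39, 2.43 and 5.94 in sham, MSC and DPSC against NT, to 0.02, -1.05 and 3.58 in MSC, MSCEPO and DPSC against sham, and to -1.11 in MSCEPO against MSC.

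With the replicate number as a block (replicate block) the count was 0 in each comparison. Over 30 pairs of libraries with the same number in different groups, deviations from group means correlated between -0.44 and 0.65, with 12 over 0.1. As deviations within a group sum to 0, these values cannot decide whether the numbers pair libraries. In the main fit the numbers were used as names only. The median correlation between members was 0.988 to 0.993 with 1 library left out.

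With 3 libraries per group and a within-group SD near 2, differences of several-fold were not detectable as changes, and rlog shrinkage understates the changes of low genes.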

Other observations

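Foxe3 and Aqp5 did not have the library order of the crystallins and were chosen for that after their values were seen. The mean of the 15 other lens genes, Aqp5 included, did follow the crystallin mean (r = 0.99). Foxe3 was at 3.56, 3.66 and 3.63 in NT, at 3.85, 4.47 and 4.53 in sham, at 4.04, 3.61 and 3.56 in MSC, at 3.54, 5.41 and 3.54 in MSCEPO and at 4.94, 3.56 and 3.72 in DPSC. Foxe3, a transcription factor of the lens epithelium, was highest in MSCEPO replicate 2, where the crystallin mean was only 0.27 above NT, and stayed at its NT level in MSCEPO replicate 3, where that mean was 3.84 above NT. Its next highest value was in DPSC replicate 1, the library with the most crystallin. Most of its values were near 3.32, the filter on the mean. Aqp5 was at 5.23, 6.22 and 5.95 in NT, at 6.01, 6.98 and 6.58 in sham, at 6.12, 5.83 and 5.98 in MSC, at 5.08, 5.38 and 5.76 in MSCEPO and at 6.03, 5.15 and 5.57 in DPSC. Aqp5, a water channel of lens and cornea, was highest in sham replicate 2. These values are descriptions of single libraries and were not tested.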
